A study of Sus scrofa with 4 samples.

Results

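CD163 and CD163L1 are a pair of related scavenger receptors whose genes lie close together in the pig genome, and their probes moved in opposite directions in the thymus of IL2RG KO pigs. All 4 probes of CD163 were higher in KO than in WT thymus, by 3.71- to 3.97-fold, whereas the only probe of CD163L1 was lower and was not well above background on either KO array. The size of that fall depends on the background correction, with at least 20.5-fold on the processed signal and 8.89-fold on the spot brightness net of local background. The members were the 2 genes CD163 and CD163L1, also called WC1, of the 3020 genes that the RefSeq accessions in the scanner output could name. Every probe with an accession of either gene was taken. This gave 4 probes of CD163 and 1 of CD163L1 among the 43603 probes of the array. All 5 passed the filter on dim probes, CD163L1 through its WT arrays alone.

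Both proteins belong to the scavenger receptor cysteine-rich (SRCR) family, whose extracellular part is a row of domains held together by disulphide bonds. CD163 is carried by monocytes and tissue macrophages, takes up complexes of haptoglobin and haemoglobin, is induced by IL10, IL6 and glucocorticoids, and can be shed from the cell surface by proteolysis. In pigs it is also known as a receptor needed by an arterivirus of swine. WC1 molecules are found on gamma delta T cells of pigs and ruminants, where they act as co-receptors of the T cell receptor, and they are made by a family of similar genes. The number of WC1 copies that the CD163L1 probe can bind was not determined, so its signal may sum several of them.

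The KO samples were thymus of 2 pigs labelled IL2RG+/-, which carry 1 disrupted allele of the gene for the common gamma chain of interleukin receptors. They were compared with 2 thymus samples labelled wildtype, here called WT, and all 4 samples were of Minnesota miniature swine. The disruption was made with TALENs in cultured cells, and the KO pigs were cloned from those cells by nuclear transfer. Most KO pigs of the study lacked a thymus, so the KO samples come from the few in which a rudimentary one had formed. The labels give neither the age of the pigs nor whether the WT pigs were cloned, so these cannot be told apart from the genotype. The methods mention 2 dyes, Cy-3 for sample and Cy-5 for control RNA, while the labels and the scanner files hold 1 dye per array, and the arrays were treated as single-colour. Each sample was on 1 Agilent porcine array, and KO replicate 1 shared slide 1 with WT replicate 2 while KO replicate 2 shared slide 2 with WT replicate 1.

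The arrays were alike in brightness, with a 75th percentile of the raw signal between 621 and 762, and 67.9% to 74.5% of their spots were well above background. No spot was saturated, and the 4 to 8 spots per array that the scanner software marked as outliers were dropped. Signals are given as log2 of the processed signal minus the 75th percentile of the array, so that 0 is that percentile, and changes are KO minus WT. Calls required at least a 2-fold change and, in limma, a p-value below 0.05 once adjusted by Benjamini-Hochberg. Of the 31959 probes tested, 34.0% were called, 21.0% higher and 13.0% lower in KO. All 4 CD163 probes were called higher and the CD163L1 probe was called lower, against these shares. The counts of called genes in the lists below are to be read beside the same shares. The targeted gene, IL2RG, was lower in KO at both of its probes, with signals of -3.15 and -3.29 in KO and -0.13 and 0.52 in WT at the brighter one, where its log2 change was -3.41 (standard error, SE, 0.27, limma adjusted p = 0.00256). In whole tissue, fewer cells of a type and less RNA per cell cannot be told apart.

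The brightest CD163 probe, A_72_P177981, had log2 signals of 4.53 and 5.10 with KO thymus and of 2.85 and 2.86 with WT thymus. The KO arrays lay far above the WT arrays, which were nearly identical to each other. KO averaged 4.82 ± 0.41 (SD, n = 2) and WT averaged 2.86 ± 0.01 (SD, n = 2). The log2 change was 1.96 (SE 0.24, 95% interval 1.31 to 2.61, limma adjusted p = 0.00589), a 3.89-fold rise. Before normalization the same spot read 17611 and 23894 in KO and 4469 and 5052 in WT. Its local background in KO replicate 1 was marked as an outlier, which none of the other CD163 spots was, and at 40 against 38 in KO replicate 2 it was small beside the signal.

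The second probe, A_72_P656100, read 3.48 and 4.02 in KO and 1.72 and 1.80 in WT. Its log2 change was 1.99 (SE 0.24, limma adjusted p = 0.00541). The third, A_72_P624895, read 1.60 and 2.35 in KO and -0.0039 and 0.17 in WT. On each of these probes both KO arrays again exceeded both WT arrays. Such a separation is common with 2 arrays against 2, and its share among all tested probes was not counted, here or below. The log2 change of the third was 1.89 (SE 0.30, limma adjusted p = 0.0104). The dimmest, A_72_P170001, read -0.19 and 0.47 in KO and -1.98 and -1.56 in WT, and its log2 change was 1.91 (SE 0.30, limma adjusted p = 0.0103). The 4 probes differ widely in brightness, which depends on the probe and is not compared here, but their changes lie within 0.10 of each other on the log2 scale. They report on 1 transcript in the same 4 RNA samples and are not independent replicates.

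**Figure D1:**
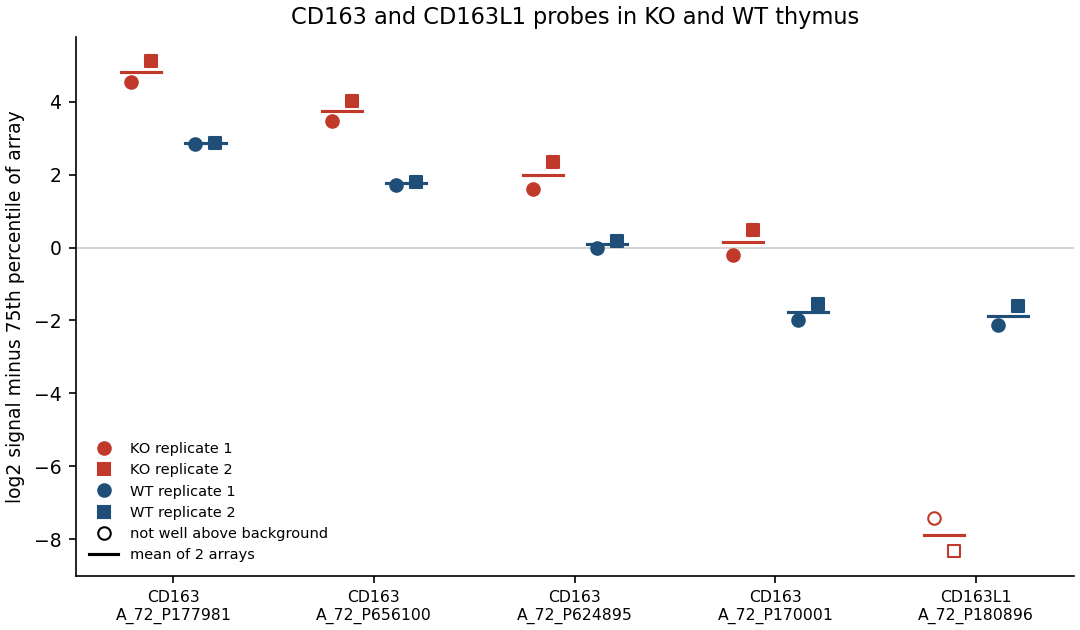
Normalized log2 signal (vertical axis, log2 of the processed signal minus the 75th percentile of its array) of the 4 CD163 probes and the CD163L1 probe in 2 KO and 2 WT arrays, with horizontal bars for the mean of each genotype and open symbols for values not well above background. At all 4 CD163 probes both KO arrays lie above both WT arrays and KO replicate 2 lies above KO replicate 1, whereas the CD163L1 probe falls from -2.13 and -1.60 in WT to values not well above background in KO.

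The size of the CD163 rise differed between the slides. On slide 1, KO replicate 1 exceeded WT replicate 2 by 1.37 to 1.68 on the log2 scale over the 4 probes, and on slide 2, KO replicate 2 exceeded WT replicate 1 by 2.26 to 2.45. Over the 4 probes and every pair of a KO and a WT array, the difference lay between 1.37 and 2.45. Each pair and each slide thus showed more than a 2-fold rise at each probe. When single arrays were omitted, the brightest probe kept log2 changes between 1.67 and 2.25, with adjusted p values up to 0.0333 in limma. No CD163 probe reached 4-fold on these values. The brightest one and A_72_P656100 did so under quantile normalization, with log2 changes of 2.15 and 2.12. With the deposited log2 values they were also at 2.15 and 2.12. A larger rise than that of CD163 was seen at 11.6% to 12.6% of the tested probes, depending on the CD163 probe, so that the gene was among the risers of middling size.

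CD163L1 was measured by probe A_72_P180896. Its log2 signal was -2.13 and -1.60 in the WT arrays, well above background on both, and -7.41 and -8.32 in the KO arrays, not well above background on either. The means were -1.86 ± 0.38 (SD, n = 2) in WT and -7.87 ± 0.64 (SD, n = 2) in KO. In raw brightness the processed signal fell from 142 and 229 in WT to 4.47 and 2.18 in KO. The lowest processed signals that counted as well above background on the KO arrays were 9.27 and 10.3. The median brightness of the spot before background subtraction was 57 and 61 in KO over a local background of 32 and 34, against 212 and 291 in WT over 39 and 35.5. The spot was thus of moderate brightness in WT and close to the background in KO.

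Because the KO values were not well above background, only a bound can be given for the fall. With each KO array set to the lowest processed signal well above background on that array, CD163L1 was at least 20.5-fold lower in KO, or 4.36 on the log2 scale. This bound holds for the processed signal only. The median spot brightness minus its local background came to 25 and 27 in KO but 172.5 and 255.5 in WT, which after scaling to the 75th percentile is an 8.89-fold fall. The fitted log2 change was -6.00 (SE 0.38, limma adjusted p = 0.0021). The probe passed the filter only through its WT arrays, so a call could hardly go the other way, and this p-value adds no support. It was -5.81 within slide 1 and -6.19 within slide 2, and between -6.45 and -5.55 when single arrays were omitted. The normexp correction, run on the median spot brightness and its local background, gave -2.06 with an offset of 50 (SE 0.17, limma adjusted p = 0.0003) and -3.79 with no offset (SE 0.21, limma adjusted p = 0.00127). The direction was kept under both, and the size was not. The calls and p-values under normexp add no support either, since the same filter was used. In what follows, normexp stands for the version with the offset.

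**Figure D2:**
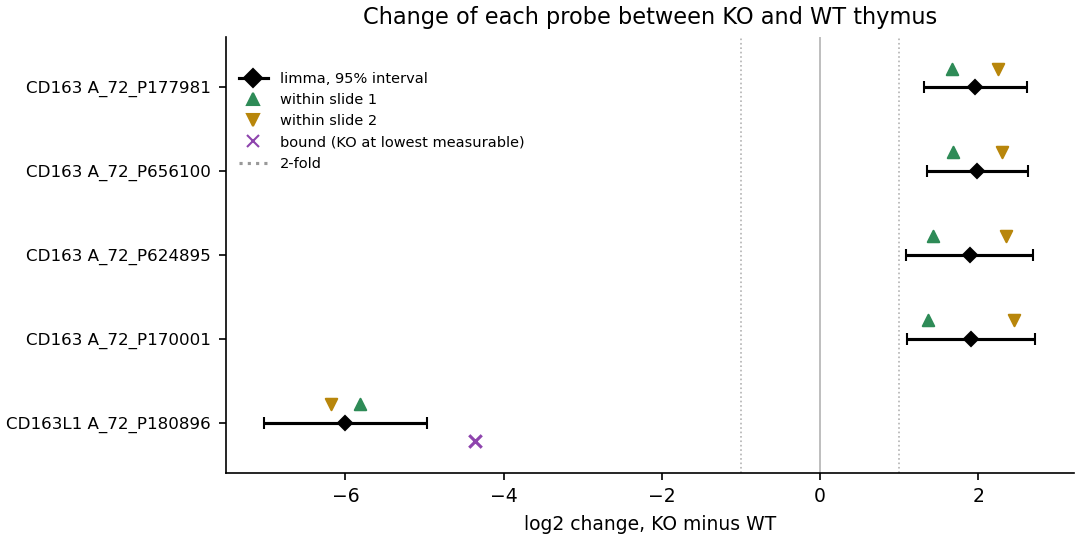
Log2 change (KO minus WT, horizontal axis) of the 5 probes, with the limma estimate and its 95% interval as diamonds and bars, the differences within slide 1 and slide 2 as triangles, and the bound for CD163L1 on the processed signal as a cross. The 4 CD163 probes lie between 1.89 and 1.99, with the slide 2 value above the slide 1 value at each, and CD163L1 lies at -6.00 with a bound of 4.36 in size.

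**Figure D3:**
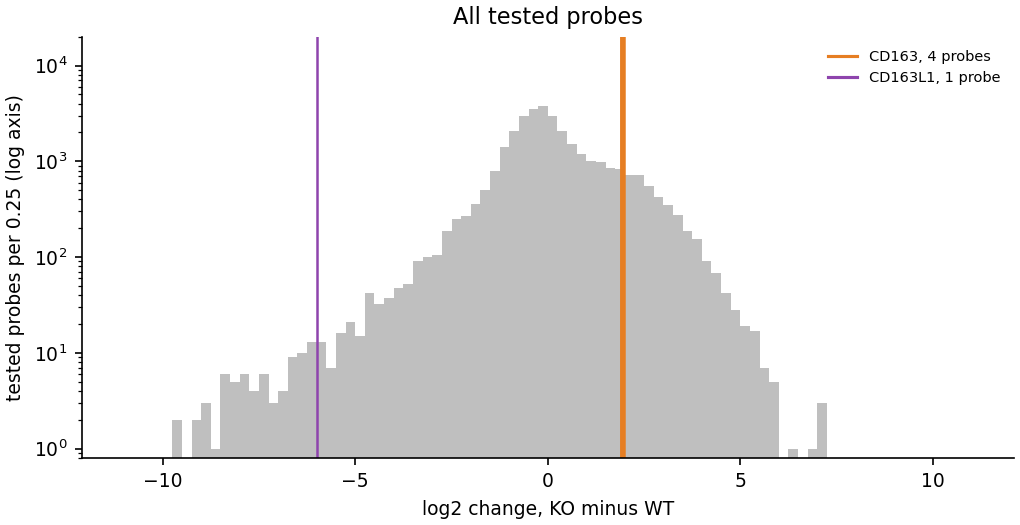
Number of tested probes (vertical log axis) by log2 change between KO and WT (horizontal axis) for all 31959 tested probes, with lines at the CD163 and CD163L1 probes. The CD163 lines lie inside the upper shoulder, beyond which 11.6% to 12.6% of probes are found, and the CD163L1 line lies in the lower tail, at a fitted value that rests on KO signals not well above background.

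The changes of both receptors were set against each other on each array. The log2 change of the brightest CD163 probe exceeded that of CD163L1 by 7.96, and by at least 6.32 when CD163L1 in KO is set to its bound on the processed signal. Under the normexp correction with the offset it was 4.02. A two-sided exact permutation test over the arrays gave p = 0.333. This is the smallest that 2 arrays against 2 arrays allow, so the test cannot decide whether the responses differed. The 95% limma interval was 1.31 to 2.61 for CD163 and -7.03 to -4.97 for CD163L1. The latter rests on KO values not well above background. It leaves out the change at the bound and under both normexp versions, so it does not measure the uncertainty of the fall. In the genome assembly, 3 genes without a symbol lie between CD163 and CD163L1, and none of them had a named probe. Among the 10 genes beyond each end, RBP5, which encodes a retinol-binding protein, and C1S, which encodes a complement protease, were the 2 with a tested named probe. Their log2 changes were 3.63 (SE 0.66, limma adjusted p = 0.0146) and 2.74 (SE 0.64, limma adjusted p = 0.0269).

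CD163 is a macrophage gene, and 14 of 22 macrophage markers considered beside it had a tested named probe. All 14 were higher in KO, with log2 changes from 1.62 to 3.05 and a median of 2.12, while the median over all tested probes was -0.06. CD163 itself is not among these markers, and 9 of the 14 rose by more than its brightest probe. C1QA, C1QB and C1QC, the chains of complement C1q made by tissue macrophages, had log2 changes of 2.39, 2.35 and 2.23. MRC1, the macrophage mannose receptor, rose most, by 3.05, and VSIG4, a complement receptor of tissue macrophages, rose least, by 1.62. SIGLEC1, a sialic acid receptor of macrophages, had a log2 change of 1.82, and CD14, the co-receptor for endotoxin, of 1.98. All 14 markers were well above background on all 4 arrays, so that the WT thymus also held their RNA. The summed linear level of the 14 came to 325 and 408 in KO but 90.1 and 61.3 in WT, in units of the 75th percentile of each array. Without KO replicate 2, 9 of the 14 were called, and CD14, FCER1G, FCGR3A, TYROBP and VSIG4 were not, and without KO replicate 1, 11 were called. Under the normexp correction 12 were called, without SIGLEC1 and SPI1.

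The arrays of 1 genotype differed in CD163 in a way that other macrophage markers shared in KO and not in WT. KO replicate 2 exceeded KO replicate 1 by 0.54 to 0.76 on the log2 scale at the 4 CD163 probes, a gap that 6.21% of all tested probes reached, and 13 of the 14 macrophage markers were also higher in KO replicate 2, with a median gap of 0.33. The gap was as large as the smallest CD163 gap at 3 of the 14, CD14, FCGR3A and VSIG4. In WT, replicate 2 exceeded replicate 1 by 0.02 to 0.42 at the CD163 probes, whereas 13 of the 14 macrophage markers were lower in WT replicate 2, with a median difference of -0.63. The other one, C1QC, had 2.82 in both WT arrays. All 5 tested fibroblast markers, all 5 endothelial markers and all 5 neutrophil markers were likewise higher in KO replicate 2 than in KO replicate 1 and higher in WT replicate 1 than in WT replicate 2. The neutrophil markers S100A8 and S100A9 had wide gaps in WT, with 5.11 and 3.53 in WT replicate 1 and 1.14 and -0.06 in WT replicate 2. The part of these differences between arrays in the CD163 result was not tested. Without WT replicate 1 the log2 change of the brightest CD163 probe was 1.95, and without WT replicate 2 it was 1.97.

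**Figure D4:**
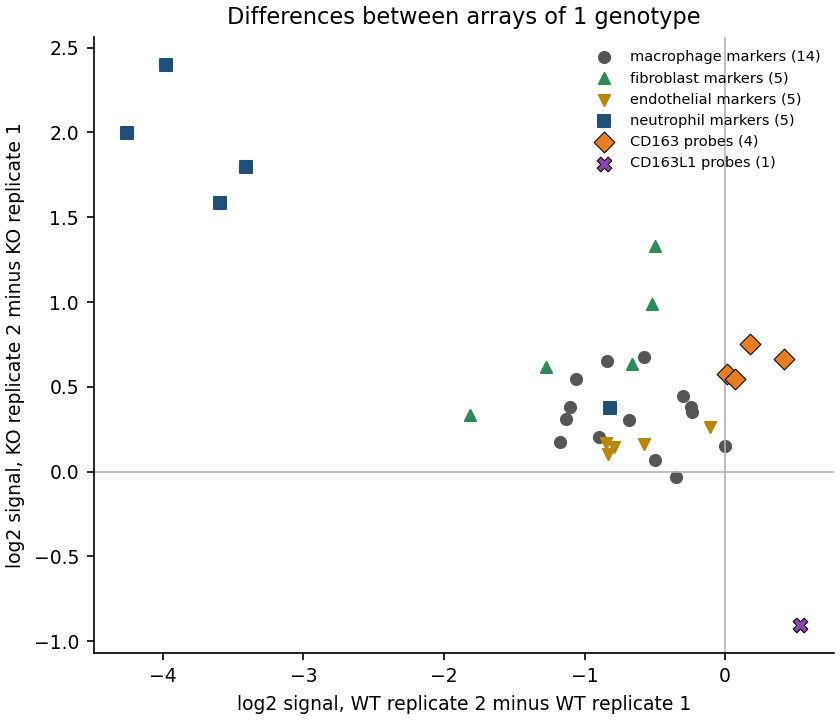
Difference in normalized log2 signal between the 2 WT arrays (horizontal axis, replicate 2 minus replicate 1) and between the 2 KO arrays (vertical axis, replicate 2 minus replicate 1) for each CD163 and CD163L1 probe and for markers of 4 cell types. CD163 lies above 0 on both axes, with 0.54 to 0.76 between the KO arrays, while 13 of the 14 macrophage markers lie to the left of 0, and CD163L1 lies at 0.53 and -0.90, of which the latter rests on values not well above background.

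Most genes listed for the handling of haemoglobin, haem and iron were not called. The same holds for the tested probes at large, of which 34.0% were called. Of 16 genes considered, 11 were tested, 1 was higher in KO, none was lower and 10 were not called, with a median log2 change of 0.20. The one called, HMOX1, encodes the inducible haem oxygenase that opens the haem ring, and it read 3.86 and 4.26 in KO and 2.84 and 2.35 in WT. Its log2 change was 1.47 (SE 0.26, limma adjusted p = 0.0134), and all 3 of its probes were called higher. Omitting KO replicate 2 left 1.27 and no call (limma adjusted p = 0.0831). HP, which encodes haptoglobin, the plasma protein that binds free haemoglobin for CD163, read 5.10 and 5.19 in KO and 4.57 and 3.59 in WT. It was not called, with a log2 change of 1.07 (SE 0.36, limma adjusted p = 0.0704), and the WT arrays were nearly as far apart as the genotypes. It was called under quantile normalization, with a log2 change of 1.28 (limma adjusted p = 0.0404), and without WT replicate 1, with 1.56 (limma adjusted p = 0.00364). FTH1 and FTL, the ferritin chains that store the released iron, had log2 changes of 0.20 (limma adjusted p = 0.441) and 0.45 (limma adjusted p = 0.0753) and were not called. HPX, haemopexin, which binds free haem in plasma, was at 0.06 (SE 0.18, limma adjusted p = 0.821).

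A list of 17 genes around the induction and shedding of CD163 also held genes with other links to it, such as TNFSF12 and TNFRSF12A. Of the 17 genes, 9 were tested, with a median log2 change of 0.31. Of these, 3 were higher, none was lower and 6 were not called, while 21.0% of all tested probes were called higher. IL10 read 0.63 and 0.80 in KO, against -1.95 and -1.99 in WT, and rose by 2.68 on the log2 scale (SE 0.16, limma adjusted p = 0.00208). IL6 read -2.17 and -1.83 in KO, against -3.57 and -3.66 in WT, and rose by 1.62 on the log2 scale (SE 0.19, limma adjusted p = 0.00519). The KO arrays lay above the WT arrays for both cytokines, and for 5 of the 9 tested genes of the list in all. The share of such probes among all tested probes was not counted. IL6R, a chain of the IL6 receptor, was not called at its brightest probe, with a log2 change of 0.31 (SE 0.17, limma adjusted p = 0.191), while 2 of its 3 tested probes were called higher. Under the normexp background correction the log2 change of IL6 was 0.89, below 2-fold. IL10RB, a chain of the IL10 receptor, rose by 1.28 (SE 0.25, limma adjusted p = 0.0181), and this call was lost when KO replicate 1, KO replicate 2 or WT replicate 2 was left out. NR3C1, the glucocorticoid receptor, was at -0.71 (SE 0.15, limma adjusted p = 0.0223), too small a change for a call. ADAM17, the protease that sheds CD163, was at 0.20 (limma adjusted p = 0.424), and TNFSF12, the ligand TWEAK that CD163 can bind, at 0.36 (limma adjusted p = 0.376).

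Other members of the SRCR family could be followed for 2 of 16 genes, and they too went opposite ways. CD5L, a secreted SRCR protein of tissue macrophages, read 3.40 and 3.90 in KO and 1.92 and 2.67 in WT, and rose by 1.35 (SE 0.34, limma adjusted p = 0.0318). That call was lost when either KO array or WT replicate 1 was omitted, with a log2 change of 0.98 in the last case, and with scaling to the median, with no filter and with the slide as a block. Of the 4 tested probes of CD5L, 2 were called higher. DMBT1, a secreted SRCR glycoprotein of mucosal surfaces, was lower, at -2.73 (SE 0.43, limma adjusted p = 0.01). Among scavenger receptors of other families 8 of 18 genes were tested, 5 were higher and 3 were not called, with a median log2 change of 1.71. The 5 were CD36, which takes up oxidised lipoproteins, SCARB2, a lysosomal membrane protein, CXCL16, a chemokine that also acts as a scavenger receptor, CLEC7A, the beta-glucan receptor, and MRC1, which is also one of the macrophage markers. CD36 was called at 2.66 (SE 0.61, limma adjusted p = 0.026) and no longer called without KO replicate 2 (1.97, limma adjusted p = 0.0751) or without WT replicate 2 (2.12, limma adjusted p = 0.0586). SCARB2 was no longer called when either KO array was omitted, nor CLEC7A under the normexp correction.

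**Figure D5:**
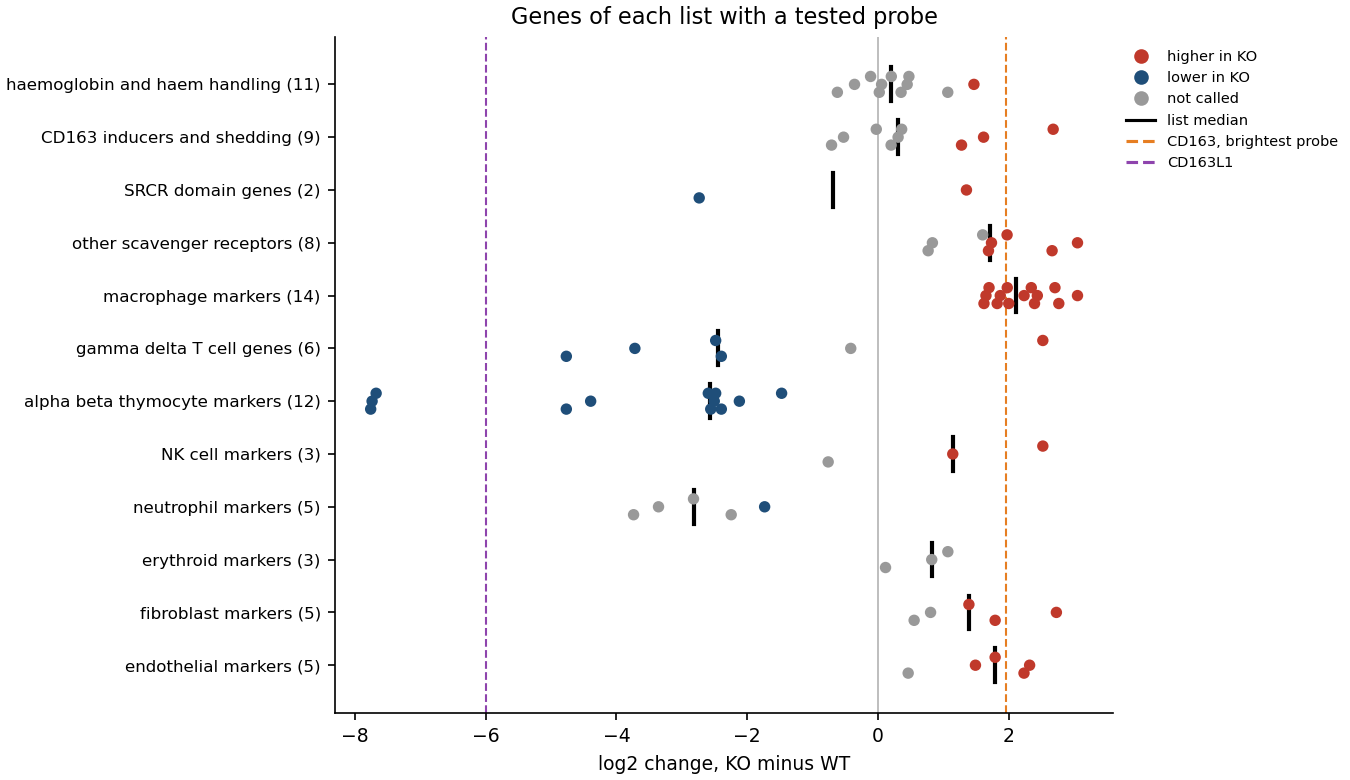
Log2 change (KO minus WT, horizontal axis) of each gene with a tested named probe in 12 of the lists, with the number tested in brackets, coloured by call, with the list median as a black bar and dashed lines at the brightest CD163 probe (1.96) and at CD163L1 (-6.00). All 14 macrophage markers lie to the right of 0 and all 12 alpha beta thymocyte markers to the left of 0. Of 11 haemoglobin and haem handling genes 10 were not called, while 34.0% of all tested probes were called.

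For CD163L1, the label as a gamma delta T cell gene could not be checked against genes that define those cells. Of 20 genes considered, 6 had a tested named probe, and none of the 6 is restricted to gamma delta T cells. IL17A and IL23R had named probes that were too dim to be tested. Of the 6, 4 were lower in KO, 1 was higher and 1 was not called. CCR9, a chemokine receptor of thymocytes, was at -4.77 (SE 0.26), GATA3, a transcription factor of T cell development, at -3.72 (0.22), and CD3G and CD3E, chains of the T cell receptor complex of all T cells, at -2.48 (0.16) and -2.40 (0.18). KLRK1, the activating receptor NKG2D of NK and T cells, was higher, at 2.52 (SE 0.32, limma adjusted p = 0.00607). ID3, a regulator of gamma delta and alpha beta T cell fate, was not called, at -0.42 (SE 0.19, limma adjusted p = 0.131).

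KO thymus was lower in all 12 tested alpha beta thymocyte markers, among them CCR9, CD3E and CD3G, and their median log2 change was -2.58. RAG1, RAG2 and PTCRA, which recombine or pair with the T cell receptor chains, were at -7.68, -7.76 and -7.74. CD163L1 is not ranked among these genes, since its size rests on KO values not well above background. Of the 12 markers, RAG2 was the 1 that was not well above background on a KO array, and it was so on KO replicate 2. The summed linear level of the 12 markers came to 29.7 and 28.7 in KO but 171 and 242 in WT, and CD163L1 was likewise higher in WT replicate 2 than in WT replicate 1. Between the KO arrays, replicate 2 minus replicate 1, CD3E and CD3G differed by 0.10 and 0.01. RAG1, RAG2 and PTCRA differed by -1.57, -1.88 and -1.44. Of the 12 markers, 5 were higher in KO replicate 2, and the median difference was -0.13.

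Markers of other cell types in the thymus moved as well, and their part in the CD163 and CD163L1 results was not tested. Of 5 endothelial markers 4 were higher in KO, with a median log2 change of 1.79, and PECAM1 and CLDN5 lost the call when either KO array was omitted. Of 5 fibroblast markers 3 were higher, with a median of 1.39, and none of the 3 was called without KO replicate 1 or without KO replicate 2. The B cell markers MS4A1 and CD79A were lower and BLNK, which macrophages also express, was higher, a call lost when either KO array was omitted. Of 3 NK cell markers KLRK1 and NKG7 were higher and GZMB was not called, and NKG7 lost the call without KO replicate 1, KO replicate 2 or WT replicate 2. Without WT replicate 1, GZMB was called lower, at -1.14 (limma adjusted p = 0.0151), against -0.76 with all arrays. Of 5 neutrophil markers MMP9 was lower and 4 were not called. Without WT replicate 2 all 5 were called lower, when either KO array was omitted MMP9 was not called, and with the slide as a block S100A8, S100A9, S100A12 and MMP9 were called lower. None of 3 erythroid markers (HBE1, KLF1 and EPOR) was called, with log2 changes from 0.12 to 1.07. EPOR was called higher without WT replicate 1, at 1.13 (limma adjusted p = 0.0469), and HBE1 without WT replicate 2, at 1.97 (limma adjusted p = 0.00334).

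A search was made for the genes whose 4 array values, each centred on its own mean, lay closest to those of each receptor among 2701 other named genes. For CD163 these were CEBPB, a transcription factor of myeloid and other cells, GDF15, a stress-induced cytokine, ULBP1, a ligand of NKG2D, PLAU, the urokinase plasminogen activator, and IGF1, a growth factor. CEBPB was closest, with a root mean square distance of 0.05 on the log2 scale and a Pearson's r of 0.999 over the 4 arrays, and IGF1 the last of the 5, with 0.14 and 0.991. Their log2 changes were between 1.83 and 1.99. For CD163L1 the closest were AVP, which encodes the hormone vasopressin, LOC100302368, LOC396781, MYL1, which encodes a muscle myosin light chain, and FAM209B. Their distances were 0.15 to 0.48, and the match in KO rests on values that were not well above background for CD163L1, AVP and MYL1. With 4 arrays that fall into 2 groups, many genes have a high r, and it is given as a description.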

How the data were processed

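Thymus RNA of 2 IL2RG KO and 2 WT samples was measured on 4 Agilent porcine arrays, with 1 dye per array per the labels. The intensity values were deposited by the authors as output of Agilent Feature Extraction (version 11.0.1.1 per the submitters' processing notes), background-subtracted and not normalized between arrays, with marks for spots well above background. A second file deposited by the authors gives log2 values of 27974 probes with the same median on all arrays, and these correlate with the log2 scanner signals at Pearson's r of 0.9998 or more. It holds the CD163 probes and not CD163L1.

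Control and outlier spots were left out here, log2 signals were reduced by the 75th percentile of each array, and spots of 1 probe were averaged. A probe entered the limma 3.58.1 fit (lmFit, eBayes, R 4.3.3) if either genotype had it well above background on both its arrays. Calls needed a 2-fold change and an adjusted p (Benjamini-Hochberg) below 0.05. The procedure was tested on simulated data. Python 3.11.15 with pandas 2.3.3 and matplotlib 3.10.9 served for tables and plots. RefSeq accessions gave a symbol to 6686 probes of 3020 genes through the Sscrofa11.1 table, from which names and the order of genes along the chromosome were taken. No coordinates are printed because the array's build is not given. Further probes of CD163 or WC1 may be among those with other identifiers. Probe and protein sequences were not used here. Each gene is represented by its brightest tested probe. Some results are not reported here.

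The members and gene lists were chosen with earlier results of these data known. The genes named are both members, IL2RG, the extremes and role-bearing genes of the lists, and the 5 genes closest to each member. The neighbours on the chromosome, and the differences between arrays of 1 genotype, were looked at after the values were seen. Alternatives tried were normexp with an offset of 50 (on the median spot signal), quantile or median scaling, the deposited log2 values, no filter, a filter on all 4 arrays, a block for slide or for replicate number, an intensity trend, a 4-fold threshold, the methods' t-test, each array left out, and, added after the data were seen, the mean of the 4 CD163 probes and normexp with no offset. The limma p-values rest on the spread between the 2 samples per genotype, moderated by a variance estimated over all tested probes. The labels do not tie these samples to named animals, and the number of arrays limits the precision.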

Additional observations from a re-analysis of the deposited data

How the results depend on the processing

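The log2 change of CD163 was positive under every alternative run, with 1.70 under scaling to the median, 1.95 under the normexp correction, 2.15 under quantile normalization and with the deposited values, and 1.94 as the mean of the 4 probes. It was 1.67 to 2.25 with each array left out. At 1.96 it missed the 4-fold threshold, and the methods' t-test, whose unadjusted p called it, did not call it after Benjamini-Hochberg adjustment or the Bonferroni correction. CD163L1 kept its sign, which its passing the filter through the WT arrays alone made likely. It was -2.06 under normexp and -3.79 under normexp with no offset, and lay between -6.45 and -5.55 with each array left out. At -6.00 it was not called by the methods' t-test after Benjamini-Hochberg or Bonferroni. Over all 31959 tested probes that test called 1489 after Benjamini-Hochberg and 0 after Bonferroni. A missing call there, also in the list counts below, thus says little about single genes. It could not be fitted with the deposited values or with the filter on all 4 arrays, which leave it out. The difference between the responses was 7.22 to 8.70 with each array left out and 4.02 under normexp. Scaling to the median lowered the median change of all tested probes by 0.26, and 12144 probes were then called, 5811 higher and 6333 lower, against 6713 and 4169.

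Samples of the same number deviated from their group means in opposite directions (r = -0.29 over probes) and samples of the same slide in the same direction (r = 0.29), and since each genotype has 2 arrays these are 1 value with its sign turned. Nothing in the labels pairs the numbers. With the replicate number as a block, the log2 changes stay at 1.96 and -6.00 by construction. Both genes were called then and with the slide as a block, which is the crossed pairing. For CD163L1 these calls add no support, since it passed the filter through its WT arrays alone. The blocks called 10658 and 11136 probes.

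The count of macrophage markers called higher was 8 at 4-fold, 1 and 0 under the methods' t-test with Benjamini-Hochberg and Bonferroni, and 9 to 14 with each array left out. For haemoglobin and haem handling it was 2 under quantile normalization, normexp with and without the offset, the deposited values and the intensity trend, 0 at 4-fold and under both adjusted t-tests, and 0 to 2 with each array left out. For gamma delta T cell genes, 0 were called higher under both adjusted t-tests, and 1 and 0 were called lower. The cause was not tested.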
